A study of Saccharomyces cerevisiae with 21 samples.

Results

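Myriocin, named ISP1 in the sample labels, was compared with the control in budding yeast growing in YPD, the usual rich glucose medium. The comparison was defined by the sample titles and used 6 of the 21 arrays of the series. Of these, 3 were from cells in YPD with ISP1 for 45 min and 3 from cells labelled as the YPD control. No time is given for the control, and whether it received a vehicle cannot be told from the labels. The comparison covered all 5449 Saccharomyces cerevisiae genes with a probe set. The other groups used below were cells in YPD under heat stress for 45 min, cells in YPD under heat stress with ISP1 for 45 min, and cells in synthetic complete medium (SC) with the fatty acid myristate, without or with ISP1. The myristate treatment lasted 45 min, and no time is given for myristate with ISP1. In that last group the titles read ISP1 for all 3 arrays, whereas the description of 1 array names ISP2 and that of another names ISP3. No dose, vehicle, temperature or strain is stated in the labels. RNA was obtained by phenol extraction and hybridised to Affymetrix yeast arrays.

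Sphingolipid synthesis begins when serine palmitoyltransferase joins serine to a fatty acyl-CoA, and myriocin blocks that enzyme, so that long-chain bases, ceramides and the inositol-containing complex sphingolipids made from them are no longer replenished. In yeast the Orm proteins hold the enzyme back, and the TORC2 kinase complex with its effector kinases Ypk1 and Ypk2 relieves that hold when membrane sphingolipids run low. Long-chain bases and ceramides are also known as signals in the heat response, in nutrient uptake and in the arrest of the cell cycle.

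Levels are log2 signals, on which a difference of 1 is a factor of 2, and each difference below is the mean of the 3 ISP1 arrays minus the mean of the 3 control arrays with its standard error (SE). A gene is said to have risen or fallen where the Benjamini-Hochberg adjusted p of the limma model over all 21 arrays was under 0.05. By that rule 3331 of 5449 genes changed with ISP1 (61.1%), of which 1522 rose (27.9%) and 1809 fell (33.2%). The counts of each gene list in YPD below stand against these shares. Most of the changes were small: the middle 95% of genes lay between -1.03 and 1.51, the median gene was at -0.04, and 454 genes (8.33%) had both passed the test and changed at least 2-fold. Among those, 303 were higher (5.56%) and 151 lower (2.77%), and at least 4-fold changes were seen in 65 genes that rose (1.19%) and in 6 that fell (0.11%). The 3 ISP1 arrays lay entirely above or entirely below the 3 control arrays for 3602 genes (66.1%), above for 29.9% and below for 36.2%. With 3 arrays against 3 an exact permutation test of a single gene cannot give a p below 0.1, so the calls rest on the spread that the model estimates from all 21 arrays. Nothing in the labels says whether replicates were separate cultures, and the p-values then measure only the spread between these arrays.

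Replicates correlated at 0.995 to 0.9976 across genes, array medians lay between 10.28 and 10.33, and 98.2% to 98.4% of genes exceeded the level that 95% of the other-species probe sets on the array stayed under. The difference between the 3' and 5' probe sets of ACT1, a sign of RNA integrity, was 0.56 ± 0.04 in the control and 0.52 ± 0.10 with ISP1 (SD, n = 3 each). For the other 2 such pairs it was 1.54 ± 0.17 and 1.63 ± 0.12 in SPT15 and 2.86 ± 0.02 and 2.91 ± 0.33 in SRB4, where the ISP1 arrays spread from 2.62 to 3.27. The mating type markers were those of alpha cells, with the 4 alpha-specific genes between 11.12 and 13.77 on the 6 arrays and the 6 a-specific genes between 6.18 and 7.83. Array 1 was the highest or the lowest array of each group for most genes of several lists, and its values are given beside the main ones. Over all genes it was the highest control array for 36.8% and the lowest for 36.4%, and the highest ISP1 array for 35.8% and the lowest for 37.3%. The part of array 1 in these results was not tested beyond the medians and the fits without it.

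RTC2 and BDH2 rose furthest, and the 5 genes that fell furthest belonged to the phosphate regulon list. RTC2, which encodes a vacuolar membrane protein of the PQ-loop family, read 7.54, 7.85 and 8.06 on the control arrays and 11.06, 11.39 and 11.51 on the ISP1 arrays, a rise of 3.50 ± 0.17. BDH2, whose product resembles the butanediol dehydrogenase Bdh1, read 8.79, 8.10 and 7.88 on the control arrays and 12.04, 11.57 and 11.49 on the ISP1 arrays, a rise of 3.45 ± 0.18. These are rises of 11.3-fold and 10.9-fold, and in both genes every ISP1 array was far above every control array. TMT1, which encodes the trans-aconitate methyltransferase, read 9.20, 9.59 and 9.87 on the control arrays and 12.43, 12.67 and 12.73 on the ISP1 arrays (3.05 ± 0.12). SRY1, the 3-hydroxyaspartate dehydratase, read 8.62, 8.82 and 8.89 on the control arrays and 11.38, 11.99 and 11.89 on the ISP1 arrays (2.98 ± 0.13). Again no ISP1 array came near the control range. YPT53, a Rab GTPase of endosomal traffic, read 6.10, 5.98 and 5.75 on the control arrays and 8.64, 9.19 and 8.85 on the ISP1 arrays (2.94 ± 0.16). The alcohol dehydrogenase gene ADH5 read 9.23, 9.57 and 9.86 on the control arrays and 12.30, 12.61 and 12.55 on the ISP1 arrays (2.94 ± 0.14), and CYB2, the mitochondrial L-lactate cytochrome c oxidoreductase, 8.08, 7.66 and 7.87 on the control arrays and 10.91, 10.56 and 10.58 on the ISP1 arrays (2.81 ± 0.10). The 2 groups were well apart in these 3 genes also. EGO4 and RTC3 read 8.85, 8.57 and 8.36 against 11.60, 11.40 and 11.84 (3.02 ± 0.10) and 10.22, 9.74 and 9.67 against 13.05, 12.74 and 12.79 (2.98 ± 0.11), control arrays first. The adjusted p of these 9 genes in the limma model ranged from 1.33e-13 for EGO4 to 2.53e-11 for YPT53.

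**Figure D1:**
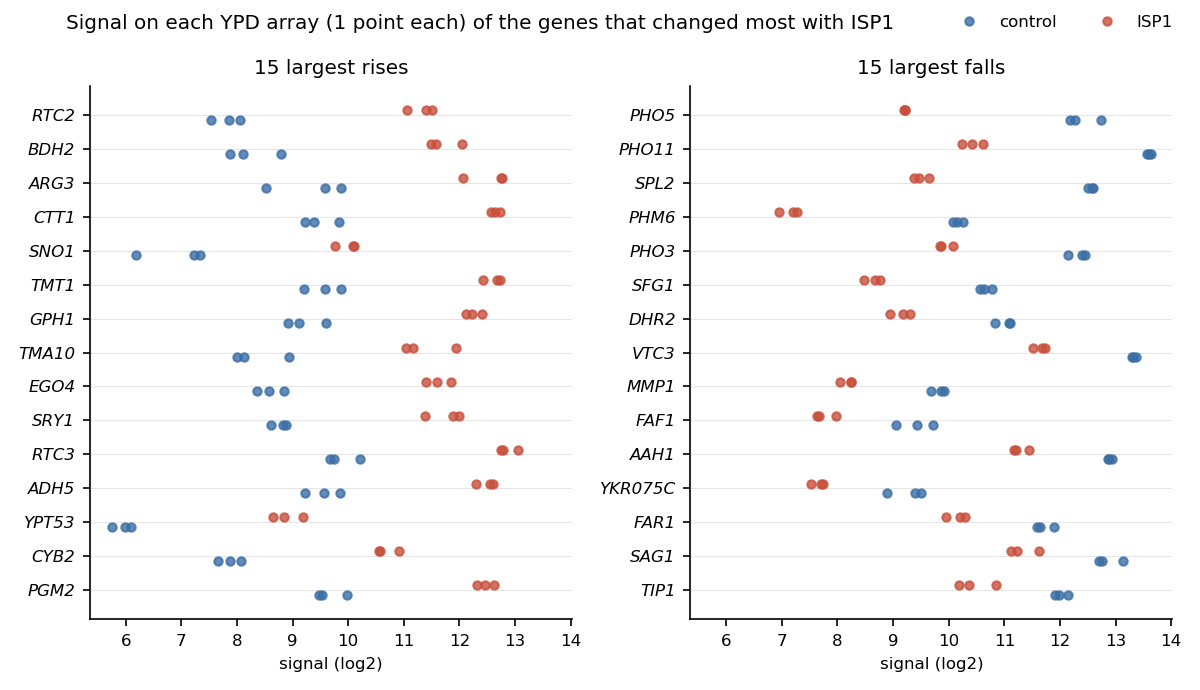
Log2 signal on each of the 3 control arrays (blue) and 3 ISP1 arrays (red) in YPD for the 15 genes with the largest rise (left) and the 15 with the largest fall (right) among genes that passed the test with no overlap between the groups. RTC2 heads the rises at 3.50 and PHO5 the falls at -3.19.

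Transcripts of the sphingolipid pathway itself moved in both directions, in shares near those of all genes (27.9% higher and 33.2% lower). Of its 35 genes, all measured, 10 rose, 11 fell and 14 did not pass, with a median of 0.08 against -0.04 over all genes. None of the 3 genes of the target enzyme rose. LCB1, a subunit of serine palmitoyltransferase, read 12.56, 12.58 and 12.59 on the control arrays and 12.61, 12.56 and 12.53 on the ISP1 arrays (-0.01 ± 0.07, adjusted p = 0.911), and the 2 groups overlapped. LCB2, its partner subunit, read 12.26, 12.12 and 12.11 on the control arrays and 11.95, 11.73 and 11.63 on the ISP1 arrays and fell (-0.39 ± 0.07, adjusted p = 8.42e-05). TSC3, the small activating subunit of the enzyme, had a difference of 0.28 ± 0.13 that missed the threshold (adjusted p = 0.0622) but passed it with replicates blocked by number (adjusted p = 0.033), without ISP1 replicate 1 (0.45, adjusted p = 0.00343) and without control replicate 3 (0.35, adjusted p = 0.0431).

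Of the genes for the 2 Orm inhibitors of the enzyme, one changed. ORM2 read 11.50, 11.67 and 11.57 on the control arrays and 12.30, 12.22 and 12.34 on the ISP1 arrays, a rise of 0.71 ± 0.07 (adjusted p = 1.45e-07) with no overlap. ORM1 read 11.39, 11.29 and 11.29 on the control arrays and 11.38, 11.18 and 11.13 on the ISP1 arrays, with overlapping groups and a difference of -0.09 ± 0.07 (adjusted p = 0.265), which passed without ISP1 replicate 1 (-0.16, adjusted p = 0.0341).

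In the steps after the first, TSC10, the 3-ketosphinganine reductase that makes dihydrosphingosine, fell (-0.48 ± 0.05). SUR2, which hydroxylates it to phytosphingosine, had a small fall (-0.22 ± 0.08) whose groups overlapped and which did not pass without ISP1 replicate 2 or 3 or without control replicate 1 or 3 (-0.20 to -0.15, adjusted p 0.0627 to 0.13). SCS7, the hydroxylase of the very long chain fatty acid, rose (0.30 ± 0.05). The ceramide synthase genes LAG1 (-0.10 ± 0.07), LAC1 (0.18 ± 0.09) and LIP1 (0.06 ± 0.08) did not pass, though LAC1 passed in the fit of the 6 compared arrays with replicates blocked by number (adjusted p = 0.0212).

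Both ceramidase genes rose, and they were among the largest changes of the pathway. YPC1, which prefers phytoceramide, read 10.11, 9.97 and 10.02 on the control arrays and 11.40, 11.24 and 11.37 on the ISP1 arrays (1.30 ± 0.06, adjusted p = 8.35e-12). YDC1, which prefers dihydroceramide, read 10.53, 10.55 and 10.35 on the control arrays and 11.48, 11.62 and 11.66 on the ISP1 arrays (1.11 ± 0.06, adjusted p = 1.63e-11). In each gene the lowest ISP1 array was above the highest control array. Among the fatty acid elongation genes, ELO1, which extends medium-length chains, rose (0.49 ± 0.07), whereas ELO2 (-0.50 ± 0.07) and ELO3 (-0.40 ± 0.07), which make the very long chains of ceramide, fell. PHS1 (-0.07 ± 0.07), IFA38 (0.09 ± 0.05) and TSC13 (0.12 ± 0.06), of the same elongation cycle, did not pass; TSC13 passed without ISP1 replicate 1 (0.16, adjusted p = 0.0337) and without control replicate 1 (0.15, adjusted p = 0.0449).

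The enzymes that phosphorylate, dephosphorylate or cleave long-chain bases fell or did not pass. The phosphatase genes LCB3 (-0.32 ± 0.05) and YSR3 (-0.52 ± 0.12) fell. The kinase gene LCB5 had a difference of -0.13 ± 0.05 that passed narrowly (adjusted p = 0.0493) and did not pass when any one of the 6 arrays was left out, with adjusted p between 0.058 and 0.136. The kinase gene LCB4 (0.09 ± 0.07) and the lyase gene DPL1 (0.08 ± 0.05) did not pass.

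For complex sphingolipids, genes of the first step fell and 3 genes of the later steps rose. AUR1, the inositol phosphorylceramide synthase, read 12.75, 12.75 and 12.56 on the control arrays and 12.16, 12.09 and 12.10 on the ISP1 arrays (-0.57 ± 0.06, adjusted p = 3.1e-07), with no overlap. Its partner KEI1 fell by less (-0.25 ± 0.10, adjusted p = 0.0394), and it did not pass without ISP1 replicate 1 or 2 or without any one control array (-0.27 to -0.20, adjusted p 0.0525 to 0.142). SUR1, a mannosyltransferase acting on inositol phosphorylceramide, rose (0.56 ± 0.12), as did CSG2, its regulatory subunit (0.35 ± 0.06). IPT1, which adds the last inositol phosphate, read 11.30, 11.28 and 11.15 on the control arrays and 11.92, 11.96 and 11.92 on the ISP1 arrays (0.69 ± 0.06, adjusted p = 2.7e-08), and every ISP1 array was higher. The related genes CSH1 (0.13 ± 0.10) and SKN1 (0.12 ± 0.10) and the phospholipase gene ISC1 (0.04 ± 0.05) did not pass. In ceramide transport, NVJ2 rose (0.44 ± 0.07) and SVF1 fell (-0.46 ± 0.10).

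The largest change of the pathway was in RSB1, which encodes a plasma membrane protein required for resistance to long-chain bases. Its signal was 10.61, 10.32 and 10.52 on the control arrays and 12.04, 11.87 and 11.83 on the ISP1 arrays, a rise of 1.43 ± 0.13 (2.69-fold, adjusted p = 2.69e-08). RSB1 belongs to the RTA1-like family of membrane proteins, and the 4 measured members of 5 rose, with a median of 1.62. RTA1, first known for resistance to an aminocholesterol, read 6.97, 6.76 and 6.66 on the control arrays and 9.34, 9.49 and 9.65 on the ISP1 arrays (2.70 ± 0.14, 6.5-fold). PUG1, involved in protoporphyrin uptake, read 6.97, 6.92 and 7.10 on the control arrays and 8.32, 9.10 and 9.01 on the ISP1 arrays (1.81 ± 0.25), and YLR046C, of unknown function, rose by much less (0.29 ± 0.09). Groups did not overlap in RSB1, RTA1 or PUG1, and YLR046C did not pass without replicate 1 of both groups (0.25, adjusted p = 0.0683).

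**Figure D2:**
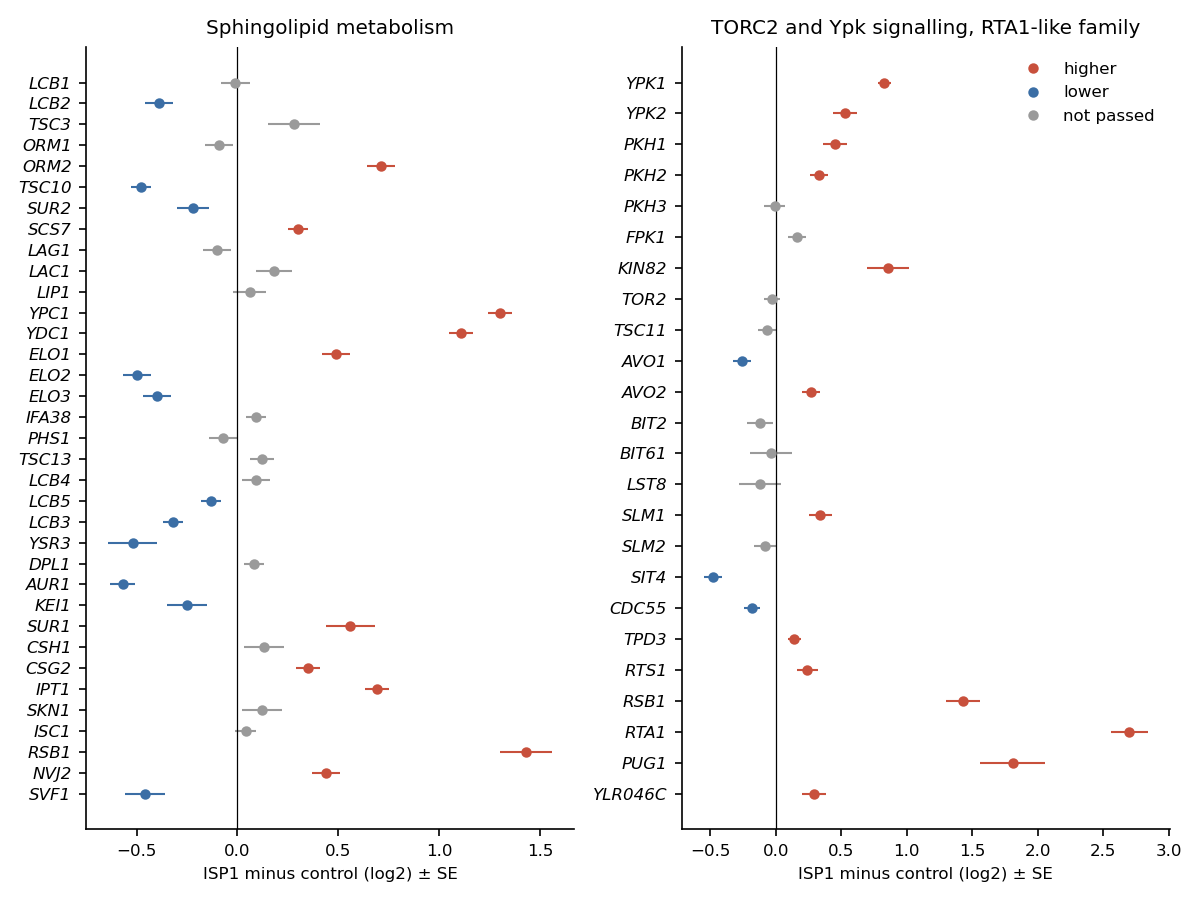
ISP1 minus control in YPD (log2, point) with its SE (bar) for the 35 sphingolipid genes ordered along the pathway (left) and for the TORC2 and Ypk genes and the RTA1-like family (right), coloured by whether the gene rose (red), fell (blue) or did not pass (grey). RSB1 is listed in both panels at 1.43, and RTA1 has the largest change at 2.70.

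Around TORC2 most of the rises were in kinase genes. Of 20 genes, 9 rose, 3 fell and 8 did not pass (median 0.06), against 27.9% higher and 33.2% lower over all genes. Of the 7 kinase genes 5 rose. YPK1, the main TORC2 effector kinase, read 10.57, 10.62 and 10.53 on the control arrays and 11.44, 11.42 and 11.35 on the ISP1 arrays (0.83 ± 0.05, adjusted p = 4.64e-10). KIN82, one of the flippase kinases, read 7.10, 7.10 and 6.88 on the control arrays and 7.93, 7.88 and 7.84 on the ISP1 arrays (0.86 ± 0.16). All ISP1 arrays exceeded all control arrays in both. YPK2 (0.53 ± 0.09) and the upstream kinase genes PKH1 (0.45 ± 0.09) and PKH2 (0.33 ± 0.07) rose, while PKH3 (-0.01 ± 0.08) and the flippase kinase gene FPK1 (0.16 ± 0.07) did not pass, though FPK1 passed without ISP1 replicate 1 (0.21, adjusted p = 0.035). Among TORC2 subunits and activators, SLM1 (0.34 ± 0.09) and AVO2 (0.27 ± 0.07) rose, AVO1 fell (-0.26 ± 0.07), and TOR2 (-0.03 ± 0.06), TSC11 (-0.07 ± 0.07), BIT61 (-0.04 ± 0.16), BIT2 (-0.12 ± 0.10), LST8 (-0.12 ± 0.16) and SLM2 (-0.08 ± 0.09) did not pass. Of the phosphatase genes tied to ceramide signalling, SIT4 fell (-0.48 ± 0.07). Smaller changes passed in CDC55 (-0.18 ± 0.06), TPD3 (0.14 ± 0.05) and RTS1 (0.24 ± 0.08), but each lost its call when an array was left out: CDC55 without control replicate 3 (-0.12, adjusted p = 0.111) or ISP1 replicate 2 (-0.16, adjusted p = 0.0555), TPD3 without control replicate 1 (0.12, adjusted p = 0.0597), and RTS1 without control replicate 2 (0.20, adjusted p = 0.0598) or ISP1 replicate 2 (0.17, adjusted p = 0.08).

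Eisosomes, the plasma membrane furrows from which Slm proteins signal to TORC2, were represented by 13 genes, of which 10 rose, 2 fell and 1 did not pass (median 0.54). For 12 of the 13 the highest control array was array 1, and for 10 it was the highest ISP1 array; without replicate 1 of both groups the median was 0.60. In the core, LSP1 (0.72 ± 0.05), EIS1 (0.64 ± 0.08), FHN1 (0.61 ± 0.09) and the sphingolipid sensor NCE102 (0.46 ± 0.05) rose, and PIL1, the main scaffold, had a smaller rise (0.19 ± 0.05). The tetraspan Sur7 family split. FMP45 read 7.92, 7.62 and 7.62 on the control arrays and 9.44, 9.09 and 9.22 on the ISP1 arrays (1.53 ± 0.11) and YNL194C 6.85, 6.28 and 6.16 on the control arrays and 8.22, 7.69 and 7.62 on the ISP1 arrays (1.42 ± 0.18), with all ISP1 arrays above the control arrays. SUR7 (-0.34 ± 0.06) and INA1 (-0.68 ± 0.16) fell instead.

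The steepest falls of the whole comparison were in the phosphate regulon list. It holds genes that yeast induces through the factor Pho4 to take up and store phosphate. It also holds their regulators and other phosphatases and transporters, not all of them induced through Pho4. Of 32 measured genes 20 fell, 5 rose and 7 did not pass, with a median of -0.51, and the 5 largest falls of all genes belonged to the list. PHO5, the repressible acid phosphatase, read 12.73, 12.18 and 12.27 on the control arrays and 9.22, 9.21 and 9.19 on the ISP1 arrays, a fall of 9.11-fold (-3.19 ± 0.11, adjusted p = 1.21e-13). PHO11, another acid phosphatase, read 13.61, 13.56 and 13.63 on the control arrays and 10.62, 10.42 and 10.24 on the ISP1 arrays (-3.17 ± 0.08), from a probe set that can also take up its near-identical copy PHO12. SPL2, which restrains low-affinity phosphate transport, read 12.59, 12.57 and 12.51 on the control arrays and 9.65, 9.38 and 9.47 on the ISP1 arrays (-3.06 ± 0.10). In these 3 genes every ISP1 array was far below every control array.

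PHM6, a phosphate-responsive gene of unknown function, read 10.26, 10.07 and 10.15 on the control arrays and 7.20, 7.28 and 6.94 on the ISP1 arrays (-3.02 ± 0.11). PHO3, an acid phosphatase close in sequence to PHO5, read 12.45, 12.39 and 12.15 on the control arrays and 10.07, 9.87 and 9.84 on the ISP1 arrays (-2.41 ± 0.11), and some of its signal can come from PHO5. VTC3, of the vacuolar polyphosphate polymerase, read 13.37, 13.29 and 13.32 on the control arrays and 11.52, 11.68 and 11.73 on the ISP1 arrays (-1.68 ± 0.09). None of these overlapped. The other polymerase subunits fell by less, VTC2 (-0.93 ± 0.05), VTC4 (-0.86 ± 0.06) and VTC1 (-0.58 ± 0.06).

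Transporters of phosphate fell moderately: PHO84, the high-affinity importer, read 14.17, 14.18 and 14.11 on the control arrays and 13.50, 13.67 and 13.62 on the ISP1 arrays (-0.56 ± 0.07), and PHO90 (-0.40 ± 0.10), PHO91 (-0.33 ± 0.07) and the glycerophosphoinositol importer GIT1 (-0.74 ± 0.14) also fell. PHO89, the sodium-coupled importer, fell (-0.72 ± 0.21), but control replicate 1 read 10.57 against 9.53 and 9.36 on the other control arrays, and the groups overlapped. The call for PHO89 was lost in the fit of the compared arrays alone (adjusted p = 0.071). PHO87, a low-affinity importer, rose (0.65 ± 0.05). Among the regulators, PHO4 (-0.53 ± 0.08), PHO81, the inhibitor of the Pho85 kinase (-0.88 ± 0.06), and the inositol polyphosphate kinase genes VIP1 (-0.55 ± 0.06) and KCS1 (-0.48 ± 0.07) fell. PHO2 (0.01 ± 0.08), PHO80 (0.06 ± 0.07) and PHO85 (0.01 ± 0.07) did not pass, and PHO92 was near background (0.16 ± 0.16). The remaining members were PHO86, a chaperone of Pho84 (-0.70 ± 0.06), and SND3 (-0.25 ± 0.06), which fell; PHM8 (0.87 ± 0.05), DIA3 (0.52 ± 0.12), PPN1 (0.21 ± 0.05) and DDP1 (0.19 ± 0.05), which rose; and PHO8 (-0.03 ± 0.06), PPX1 (-0.12 ± 0.08) and GDE1 (-0.24 ± 0.11), which did not pass.

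Genes of the general stress response, the targets of the factors Msn2 and Msn4, rose together. Of 58 genes 54 rose, none fell and 4 did not pass, with a median of 1.54. CTT1, the cytosolic catalase, read 9.83, 9.38 and 9.22 on the control arrays and 12.73, 12.64 and 12.57 on the ISP1 arrays, a rise of 8.99-fold (3.17 ± 0.10). TMA10, a ribosome-associated protein of stressed cells, read 8.94, 8.12 and 8.0 on the control arrays and 11.93, 11.03 and 11.16 on the ISP1 arrays (3.02 ± 0.22). PGM2, the phosphoglucomutase of reserve carbohydrate synthesis, read 9.97, 9.53 and 9.47 on the control arrays and 12.63, 12.31 and 12.46 on the ISP1 arrays (2.81 ± 0.10). In each of them the groups were far apart. The 4 that did not pass were HSP26 (0.47 ± 0.22), SIP18 (0.20 ± 0.25), GRE1 (0.01 ± 0.25) and SSA3 (0.00 ± 0.10), genes that read higher on array 1 than on arrays 2 and 3 of both groups.

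Array 1 bears on this list. Control replicate 1 was the highest control array for 49 of the 58 genes, against 36.8% of all genes, and ISP1 replicate 1 was the highest ISP1 array for 46 of them, against 35.8%. The list median on each array, relative to the control mean, was 0.26, -0.12 and -0.12 in the control and 1.70, 1.44 and 1.50 with ISP1. Without control replicate 1 the median rise was 1.67, and without replicate 1 of both groups 1.62, so that the rise was as large without these arrays. The transcripts of the factors themselves did not pass: MSN2 was at -0.16 ± 0.07 (adjusted p = 0.079; with replicates blocked by number 0.0278, and without ISP1 replicate 1 -0.23, adjusted p = 0.0156) and MSN4 at -0.10 ± 0.10. USV1 (1.88 ± 0.14), XBP1 (1.56 ± 0.13), a repressor induced by stress, and YAK1 (0.98 ± 0.11), a kinase that opposes growth, rose.

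Storage carbohydrate genes rose too. GPH1, glycogen phosphorylase, read 9.60, 9.12 and 8.91 on the control arrays and 12.41, 12.11 and 12.23 on the ISP1 arrays (3.04 ± 0.12), with the ISP1 arrays far above. Of 15 glycogen genes 11 rose and 1 fell (median 0.71), the rises including the branching enzyme GLC3 (2.28 ± 0.18), the debranching enzyme GDB1 (2.09 ± 0.09) and the synthases GSY2 (1.70 ± 0.09) and GSY1 (1.61 ± 0.13). Of 10 trehalose genes 9 rose and 1 fell (median 1.17), with TPS2 (2.06 ± 0.08), TSL1 (2.05 ± 0.11) and TPS1 (1.48 ± 0.09) of the synthase complex and the trehalase NTH1 (1.33 ± 0.06) all higher. Replicate 1 was the highest control array for 14 of the 15 glycogen genes and 10 of the 10 trehalose genes and the highest ISP1 array for 10 and 9 of them, and without replicate 1 of both groups the medians were 0.76 and 1.20. Oxidant defence genes rose in 18 of 27 cases and fell in 2, led by CTT1 and by the peroxiredoxin TSA2 (2.45 ± 0.09).

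Chaperone genes were split. Among 34 chaperone genes 8 rose, 13 fell and 13 did not pass, in shares near those of all genes, with a median of -0.06. Control replicate 1 was the highest of its group for 21 of the 34, and ISP1 replicate 1 for 26. The rises included those of HSP12, a membrane-associated protein (1.84 ± 0.18), the small heat shock protein HSP42 (1.44 ± 0.12), HSP31 (1.39 ± 0.07) and the disaggregase HSP104 (0.59 ± 0.07). The falls included 7 of 9 Hsp90 and co-chaperone genes, such as AHA1 (-0.52 ± 0.08), STI1 (-0.39 ± 0.06) and HSC82 (-0.36 ± 0.04), and the Hsp40 genes YDJ1 (-0.75 ± 0.05) and SIS1 (-0.56 ± 0.07). The transcript of the factor, HSF1, was at 0.02 ± 0.06 (adjusted p = 0.784).

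Amino acid synthesis genes rose, with arginine first. All 8 measured genes of arginine synthesis rose at least 2-fold, with a median of 2.0. That median was 1.78 without control replicate 1 and 1.84 without replicate 1 of both groups. ARG3, ornithine carbamoyltransferase, read 8.52, 9.59 and 9.87 on the control arrays and 12.07, 12.76 and 12.75 on the ISP1 arrays (3.20 ± 0.30, 9.18-fold). ARG1, argininosuccinate synthetase, read 11.14, 12.31 and 12.72 on the control arrays and 14.37, 14.45 and 14.49 on the ISP1 arrays (2.38 ± 0.34). Array 1 was the lowest array in both groups for 8 of 8 of these genes, against 36.4% of all genes in the control and 37.3% with ISP1, yet the groups did not overlap in any of them. Others were ARG7 (2.10 ± 0.15), the mitochondrial ornithine exporter ORT1 (2.10 ± 0.09), ARG4 (1.90 ± 0.16) and CPA1 (1.63 ± 0.12). The arginase gene CAR1, of the opposite route, rose by less (0.55 ± 0.15), and the regulator ARG80 fell (-0.37 ± 0.12), a call lost without ISP1 replicate 1 (-0.24, adjusted p = 0.0937).

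In the other amino acid pathways 44 of 61 genes rose, 6 fell and 11 did not pass, with a median of 0.46. HIS4, a multifunctional enzyme of histidine synthesis, read 10.07, 10.64 and 11.10 on the control arrays and 12.79, 13.13 and 13.19 on the ISP1 arrays (2.43 ± 0.17), with no overlap. HIS5 (2.25 ± 0.15), HIS3 (1.85 ± 0.15), TRP3 (1.38 ± 0.07), ARO3 (1.30 ± 0.11) and LYS1, saccharopine dehydrogenase (2.07 ± 0.11), rose too. All 9 lysine genes passed as higher, but LYS4 (0.32 ± 0.13) lost its call without ISP1 replicate 2 or 3 or without any one control array (0.23 to 0.35, adjusted p 0.0546 to 0.181). Array 1 was the lowest control array for 42 of the 61 genes and the lowest ISP1 array for 47, and without replicate 1 of both groups the median was 0.48. The branched-chain genes rose in 7 of 11 cases with a median of 0.25, and HIS6 fell (-0.83 ± 0.09). The transcript of GCN4, the factor of general amino acid control, which is regulated largely at translation, rose slightly, with control arrays at 13.79, 13.85 and 13.83 against 14.03, 14.08 and 14.08 on the ISP1 arrays (0.24 ± 0.04, adjusted p = 0.000108). GLN3, the factor for poor nitrogen sources, rose more (1.05 ± 0.08), as did RTG3 (0.93 ± 0.08) and LYS14 (0.58 ± 0.05). The regulators GCN2, RTG1, LEU3 and BAS1 did not rise. GCN2 and RTG1 fell in the limma model (adjusted p = 0.0323 and 0.0168). GCN2 lost its call without control replicate 3 (-0.16, adjusted p = 0.133), for example, and RTG1 without ISP1 replicate 3 (-0.18, adjusted p = 0.125). LEU3 and BAS1 did not pass.

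Sulfur amino acid genes went mostly the other way, 16 of 30 falling, 8 rising and 6 not passing (median -0.32). MMP1, the S-methylmethionine permease, read 9.87, 9.92 and 9.68 on the control arrays and 8.24, 8.04 and 8.25 on the ISP1 arrays (-1.65 ± 0.19), with a gap between the groups. MHT1, which uses that compound to make methionine (-1.39 ± 0.14), and the S-adenosylmethionine synthetase genes SAM2 (-1.10 ± 0.05) and SAM1 (-0.97 ± 0.11) fell. In the list STR2, cystathionine gamma-synthase (2.15 ± 0.12), STR3 (1.48 ± 0.31), MET16 (1.38 ± 0.12) and the sulfate permease SUL1 (1.21 ± 0.19) rose.

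Among vitamin genes 10 of 25 rose and 5 fell (median 0.12), against 27.9% higher and 33.2% lower over all genes. The falls included PHO3 (-2.41), which is in this list as well as in the phosphate list. SNO1, of pyridoxine synthesis, read 6.18, 7.23 and 7.34 on the control arrays and 9.77, 10.09 and 10.11 on the ISP1 arrays (3.07 ± 0.24), and its partner SNZ1 rose as well (2.33 ± 0.19). VHR1, the transcription factor of biotin uptake genes, read 10.14, 10.09 and 10.04 on the control arrays and 11.81, 11.87 and 11.79 on the ISP1 arrays (1.73 ± 0.08), with replicates within 0.1 of their group's mean and a wide gap. Among 32 permease genes 12 rose and 9 fell, against 27.9% higher and 33.2% lower over all genes, with PUT4, the proline permease (1.62 ± 0.11), MEP1, an ammonium permease (1.23 ± 0.14), and AGP1 (1.13 ± 0.10) higher and the oligopeptide transporter OPT1 (-0.88 ± 0.06) lower.

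Drug export genes rose in part. Of 37 genes of the multidrug resistance network 18 rose, 2 fell and 17 did not pass, with a median of 0.13, and 11 rose at least 2-fold. RTA1 and RSB1, described above, are among its targets. The ABC transporter genes PDR15 (1.70 ± 0.15), YOR1 (1.69 ± 0.07) and SNQ2 (1.47 ± 0.11) rose more than PDR5, the main drug pump, which read 13.11, 12.84 and 12.98 on the control arrays and 13.59, 13.44 and 13.60 on the ISP1 arrays (0.57 ± 0.09). GRE2, a stress-induced reductase (1.76 ± 0.09), the polyamine exporter TPO4 (1.67 ± 0.10), QDR3 (1.50 ± 0.07) and the lysophosphatidic acid acyltransferase ICT1 (1.61 ± 0.07) rose. PDR12, the weak acid pump, fell (-0.74 ± 0.15). The regulator PDR3 rose (0.56 ± 0.10), and PDR1, its homologue, did not pass (-0.06 ± 0.06).

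Ribosome biogenesis was the list with the most genes that fell. Of 106 genes 102 fell, 2 rose and 2 did not pass, with a median of -0.95, and 41 fell at least 2-fold. Array 1 was the lowest control array for 77 of the 106 and the lowest ISP1 array for 57, and without replicate 1 of both groups the median was -0.96. DHR2, a nucleolar RNA helicase, read 10.83, 11.11 and 11.08 on the control arrays and 8.95, 9.30 and 9.18 on the ISP1 arrays (-1.86 ± 0.12). FAF1, which acts in the making of the small ribosomal subunit, read 9.06, 9.43 and 9.72 on the control arrays and 7.64, 7.98 and 7.67 on the ISP1 arrays (-1.64 ± 0.21). Groups were separate in both. All 34 small subunit processome genes, all 41 large subunit assembly genes and all 11 RNA polymerase I genes fell, as did 14 of 15 RNA polymerase III genes. NOP7 (-1.51 ± 0.12), REX4 (-1.46 ± 0.13), ENP1 (-1.36 ± 0.15) and HAS1 (-1.35 ± 0.06) were among the largest, and RPA190, the large subunit of RNA polymerase I, fell too (-0.93 ± 0.09). Of their repressors, TOD6 fell (-1.42 ± 0.15), DOT6 rose (0.31 ± 0.09) and STB3 rose slightly (0.18 ± 0.07), a call lost without ISP1 replicate 1 or 3 or control replicate 2 or 3 (0.16 to 0.18, adjusted p 0.0778 to 0.12). AAH1, adenine deaminase of purine salvage, read 12.87, 12.88 and 12.94 on the control arrays and 11.18, 11.44 and 11.21 on the ISP1 arrays (-1.62 ± 0.10).

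Cytosolic ribosomal protein genes moved far less. Of 127 genes 9 fell, 1 rose and 117 did not pass, with a median of -0.05; the fit of the compared arrays with the replicate block called 15 lower. For 83 of the 127 the lowest control array was array 1, and for 90 the lowest ISP1 array. Many of these genes are near-identical pairs whose probe sets can share signal. Translation factors and tRNA synthetases fell in 36 of 53 cases and rose in 2 (median -0.27). Mitochondrial ribosomal protein genes rose in 36 of 65 cases and fell in 1. The growth kinase gene SCH9 (-0.63 ± 0.06), the protein kinase A subunit gene TPK3 (-0.68 ± 0.09) and RAS1 (-0.89 ± 0.09) fell, while TPK2 (0.83 ± 0.07) and RAS2 (0.65 ± 0.08) rose.

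**Figure D3:**
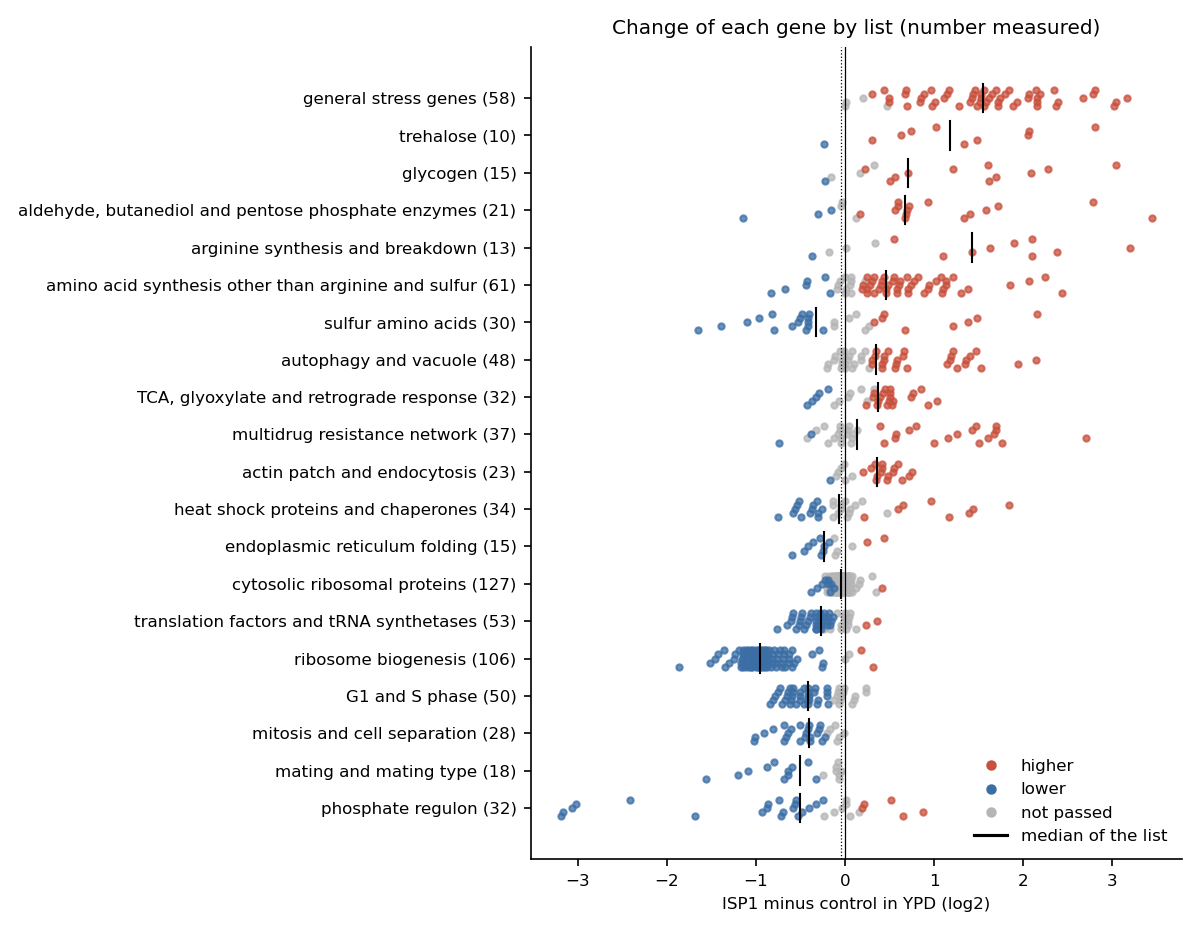
ISP1 minus control in YPD (log2) for every measured gene of 20 lists, 1 point per gene, red where it rose, blue where it fell and grey where it did not pass, with the list's median as a vertical bar and the median of all genes, -0.04, as a dotted line. General stress genes lie almost wholly to the right (median 1.54) and ribosome biogenesis genes to the left (median -0.95), while the phosphate regulon spreads from -3.19 to 0.87.

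Cell cycle genes fell by small amounts. In G1 and S phase 36 of 50 genes fell and none rose (median -0.41), including all 20 replication genes, such as CDC45 (-0.84 ± 0.11), POL1 (-0.81 ± 0.08) and MCM7 (-0.75 ± 0.08), and the G1 cyclin CLN3 (-0.62 ± 0.11). In mitosis and cell separation 22 of 28 fell and none rose (median -0.40), led by HOF1 (-1.02 ± 0.10) and the mitotic cyclin CLB2 (-1.01 ± 0.10). Of the 17 mitotic cyclin and regulator genes 14 were highest on array 1 in the control and 14 with ISP1, and their median was -0.50, or -0.44 without replicate 1 of both groups. SFG1, a factor of filamentous growth, read 10.64, 10.56 and 10.77 on the control arrays and 8.47, 8.67 and 8.76 on the ISP1 arrays (-2.02 ± 0.10), and the groups were apart. In whole cultures a shift in the share of cells at a stage and a shift in transcript per cell cannot be told apart.

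Mating genes fell as well, 11 of 18, with none rising (median -0.51). FAR1, a kinase inhibitor and scaffold of the pheromone response, read 11.90, 11.64 and 11.58 on the control arrays and 10.29, 10.20 and 9.95 on the ISP1 arrays (-1.56 ± 0.12). SAG1, alpha-agglutinin, read 13.13, 12.75 and 12.71 on the control arrays and 11.62, 11.23 and 11.12 on the ISP1 arrays (-1.54 ± 0.23). AGA1 (-1.20 ± 0.20), FUS1 (-1.09 ± 0.16) and the G protein subunit STE4 (-0.88 ± 0.08) fell too. Array 1 was the highest control array for 16 of the 17 pheromone pathway genes and the highest ISP1 array for 14 of them, and the pathway's median on each array was 0.19, -0.07 and -0.11 in the control and -0.51, -0.55 and -0.74 with ISP1.

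**Figure D4:**
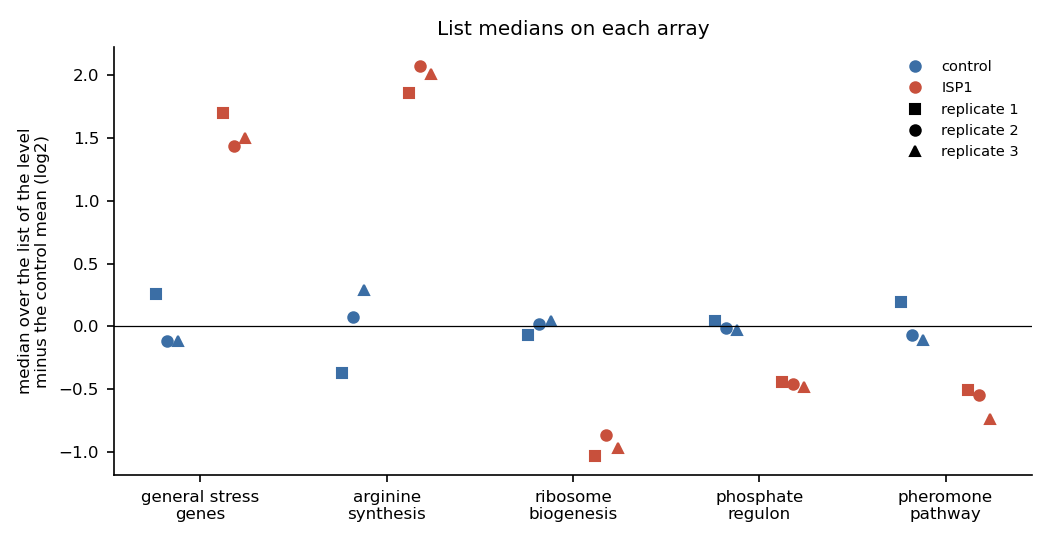
Median over the genes of each list of the log2 level minus its control mean, for each control array (blue) and ISP1 array (red), with the marker shape giving the replicate number. In general stress genes the control arrays sit at 0.26, -0.12 and -0.12 and the ISP1 arrays at 1.44 to 1.70, so replicate 1 is highest in both groups without bridging them.

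Among recycling and traffic genes, autophagy and vacuole genes rose in 27 of 48 cases with no fall (median 0.35). The largest rises were in the aminopeptidase APE1 (2.14 ± 0.05), ATG41 (1.94 ± 0.24), the vacuolar protease PRB1 (1.53 ± 0.07), ATG8, the autophagosome coat protein (1.47 ± 0.07), the vacuolar mannosidase AMS1 (1.40 ± 0.13) and ATG33 (1.36 ± 0.06). All 7 vacuolar hydrolase genes rose, and none of 12 V-ATPase genes passed. Of 12 genes listed as adaptors of the ubiquitin ligase Rsp5, 8 rose, among them CSR2 (1.38 ± 0.12) and ECM21 (1.34 ± 0.11). The 2 that fell were ART5 (-0.56 ± 0.07) and TRE1 (-0.19 ± 0.06). The TRE1 call was lost without control replicate 1 (-0.16, adjusted p = 0.0508) and without replicate 1 of both groups (-0.14, adjusted p = 0.126). Of the 4 genes grouped with the ligase in the list, BUL2 fell (-0.47 ± 0.06) and 1 rose, UBI4, polyubiquitin (1.42 ± 0.07). Actin patch genes rose in 16 of 23 cases and fell in 1 (median 0.36), with VRP1 (0.75 ± 0.09) and END3 (0.72 ± 0.09) in front. Proteasome genes rose in 17 of 33 cases, against 27.9% of all genes. The proteasome count was 10 without ISP1 replicate 2 and 8 without replicate 1 of both groups.

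Respiratory chain genes rose in 27 of 40 cases and fell in 1, though the count was 17 without ISP1 replicate 3. The lowest control array was array 1 for 29 of the 40 and the lowest ISP1 array for 28; the median was 0.18, or 0.17 without replicate 1 of both groups. The largest rises there were in the hypoxic isoform genes CYC7 (2.34 ± 0.11) and COX5B (1.88 ± 0.08) and in the external NADH dehydrogenase gene NDE2 (1.50 ± 0.13). Beta-oxidation and peroxisome genes rose in 24 of 37 cases (median 0.37), with PEX18 (1.73 ± 0.14), PEX21 (1.40 ± 0.13) and acyl-CoA oxidase POX1 (1.14 ± 0.22) highest. Phospholipid synthesis genes fell in 12 of 25 cases and rose in 4, the falls including the CDP-diacylglycerol synthase CDS1 (-0.84 ± 0.09) and the factor INO2 (-0.79 ± 0.11). In ergosterol synthesis 6 of 32 genes rose, 9 fell and 17 did not pass, against 27.9% higher and 33.2% lower over all genes. Of 4 fatty acid activation and uptake genes, FAA3 (-1.32 ± 0.08) and FAA4 (-0.57 ± 0.09) fell and FAA1 (0.17 ± 0.04) and FAT1 (0.23 ± 0.06) rose.

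Cell wall genes were mixed, 14 of 34 rising and 8 falling (median 0.09), against 27.9% higher and 33.2% lower over all genes. GSC2, the inducible glucan synthase, read 10.61, 10.34 and 10.20 on the control arrays and 12.14, 12.16 and 12.22 on the ISP1 arrays (1.79 ± 0.11), and the groups were apart. YPS1, a surface aspartyl protease, rose (1.39 ± 0.08). TIP1, a mannoprotein, read 12.14, 11.98 and 11.92 on the control arrays and 10.85, 10.37 and 10.19 on the ISP1 arrays (-1.54 ± 0.12). RCN1, a calcineurin regulator that calcineurin signalling induces, rose (0.98 ± 0.11). In endoplasmic reticulum folding 9 of 15 genes fell and 2 rose, with the Hsp70 KAR2 lower (-0.46 ± 0.06) and HAC1 higher (0.44 ± 0.05). YKR075C, an uncharacterised gene, read 8.89, 9.40 and 9.50 on the control arrays and 7.71, 7.53 and 7.74 on the ISP1 arrays (-1.60 ± 0.19).

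How far the response to ISP1 depended on the setting was asked with the arrays under heat and under myristate, which share none with the YPD comparison. Under heat, ISP1 against heat alone changed 1784 genes (32.7%), of which 898 rose (16.5%) and 886 fell (16.3%), and the middle 95% of genes lay between -0.60 and 0.68. Across the 5449 genes the ISP1 differences with and without heat had a Pearson's r of 0.542 and a Spearman's rho of 0.531, over genes that share arrays within each comparison and are not independent. Under myristate in SC 1 gene passed (0.0184%), and 349 had an unadjusted p under 0.05. That gene was VHR1, at 0.48 ± 0.08 (adjusted p = 0.0363), which was also higher under heat (1.49 ± 0.08). The middle 95% of genes there lay between -0.19 and 0.25. Medium and the added fatty acid differ from the YPD arrays together and cannot be told apart. No time is given for ISP1 with myristate either, and array descriptions in that group also name ISP2 and ISP3, as stated above.

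The genes at least 2-fold higher in YPD had a median of 1.48 there, 0.26 under heat and 0.08 under myristate, and 149 of the 303 rose and 7 fell under heat. The genes at least 2-fold lower had medians of -1.19, -0.42 and -0.10, and 96 of the 151 fell and 2 rose under heat. These genes were chosen on the YPD arrays, which also enter the differences of effect below, so that the direction of those differences is partly fixed by the choice. Over all genes, the ISP1 effect under heat differed from that without heat for 2231 genes (40.9%), higher in 1188 (21.8%) and lower in 1043 (19.1%). Under myristate the effect differed from that in YPD for 2501 genes (45.9%), higher in 25.8% and lower in 20.1%.

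The general stress genes rose with ISP1 under heat in 13 of 58 cases, against 16.5% of all genes. Their median there was 0.12, and the effect was lower under heat than without it in 50, against 19.1% of all genes. This list rose on the YPD arrays, which enter that difference, so its direction is partly fixed here as well. CTT1 averaged 14.33 ± 0.05 under heat and 14.46 ± 0.03 with heat and ISP1 (SD, n = 3 each), both above the 12.65 ± 0.08 of ISP1 alone. Compared directly, ISP1 alone was lower than heat alone in 58 of 58 of these genes, where over all genes 4035 differed (74.1%), 37% lower and 37.1% higher. Arginine synthesis rose in 2 of 8 genes under heat with a median of 0.19; ARG3 averaged 9.43 ± 0.52 under heat and 9.28 ± 0.52 with ISP1 added, a difference of effect of -3.35 ± 0.43 (adjusted p = 8e-06). For RTC2 the difference of effect was -3.33 ± 0.24.

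Several lipid and membrane genes rose with ISP1 under heat as well. RTA1 rose by 2.22 ± 0.14, RSB1 by 1.97 ± 0.13, ICT1 by 1.81 ± 0.07, IPT1 by 1.33 ± 0.06, SUR1 by 1.04 ± 0.12 and ORM2 by 0.76 ± 0.07. For RSB1 and IPT1 the rise was larger under heat than without it, by 0.54 ± 0.18 (adjusted p = 0.0237) and 0.64 ± 0.09 (adjusted p = 1.6e-05). In RTA1 (-0.48 ± 0.19, adjusted p = 0.0553), ICT1 (0.20 ± 0.10, adjusted p = 0.117) and ORM2 (0.05 ± 0.10, adjusted p = 0.741) the difference of effect did not pass. The ceramidase genes differed, with YPC1 at -0.11 ± 0.06 (adjusted p = 0.208) and YDC1 at 0.16 ± 0.06 (adjusted p = 0.0427) under heat and differences of effect of -1.41 ± 0.09 and -0.95 ± 0.08. Of the 37 multidrug resistance genes 20 rose and 4 fell under heat, and of the 35 sphingolipid genes 9 rose and 2 fell. Over all genes 16.5% rose and 16.3% fell there. The wall gene GSC2 rose under heat by 1.50 ± 0.11.

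Phosphate regulon genes fell with ISP1 under heat too, 19 of 32, against 16.3% of all genes, with 2 rising and a median of -0.31. PHO5 averaged 12.39 ± 0.29 in YPD, 9.21 ± 0.02 with ISP1, 10.29 ± 0.09 under heat and 8.84 ± 0.10 with both (SD, n = 3 each). The difference under heat was -1.45 ± 0.11, and it was nearer 0 than without heat by 1.73 ± 0.15. SPL2 averaged 11.90 ± 0.09 under heat and 9.67 ± 0.25 with ISP1 added, a difference of -2.23 ± 0.10. PHO84, in contrast, fell further under heat (-1.15 ± 0.07) than without it, with a difference of effect of -0.59 ± 0.10 (adjusted p = 0.00016). In SC with myristate PHO5 averaged 11.31 ± 0.15 without and 11.17 ± 0.08 with ISP1.

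Ribosome biogenesis genes fell under heat with ISP1 in 68 of 106 cases and rose in 2 (median -0.40). In G1 and S phase 27 of 50 fell and none rose. Over all genes 16.3% fell under heat with ISP1 and 16.5% rose. SPS100, a spore wall gene, did not pass in YPD (0.47 ± 0.21, adjusted p = 0.054; without control replicate 1 0.75, adjusted p = 0.0019) and rose under heat with ISP1 (2.27 ± 0.21), a difference of effect of 1.80 ± 0.29 (adjusted p = 8.7e-05).

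**Figure D5:**
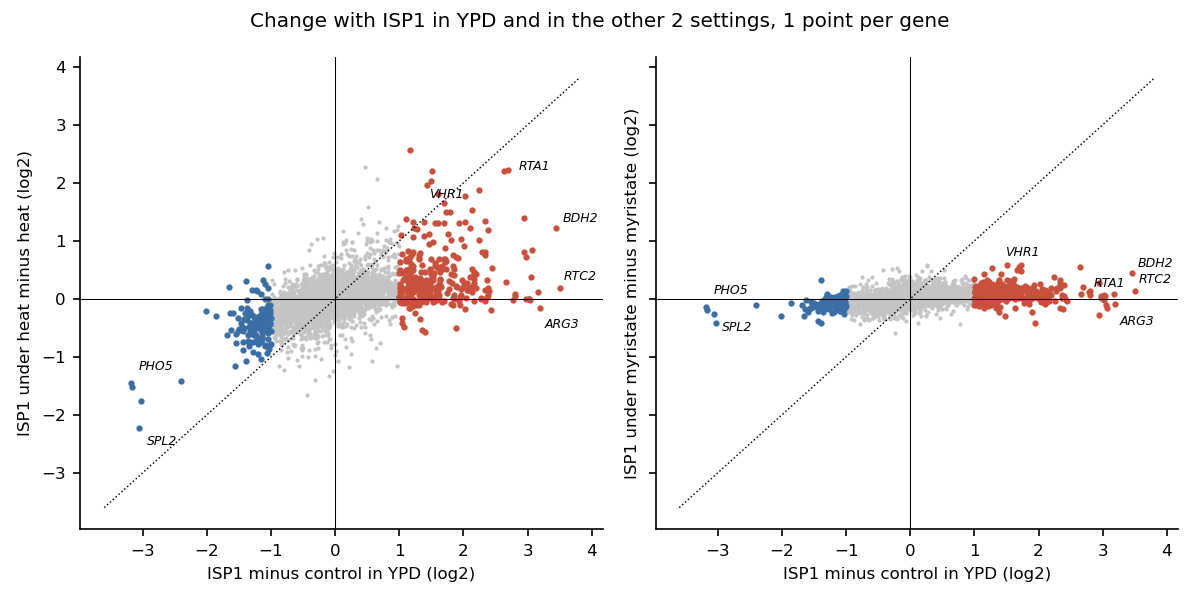
ISP1 minus its own control in YPD (horizontal axis, log2) against the same difference under heat (left) and under myristate in SC (right), 1 point per gene, with genes at least 2-fold higher in YPD in red, at least 2-fold lower in blue and all others grey, and the line of equal change dotted. The red genes have a median of 1.48 in YPD, 0.26 under heat and 0.08 under myristate.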

How the data were processed

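Per the submitters' processing notes, the authors made the deposited log2 values with affy and RMA, with no version given. RMA corrects background, normalizes by quantiles and gives 1 value per probe set. The table holds 10928 probe sets on 21 arrays, in 7 groups of 3. Of these, 5498 name 1 S. cerevisiae gene; the probe set with the highest mean was kept for each of 5449 genes, with symbols from the RefSeq gene table. The 1746 probe sets of another species served as background. Groups came from the sample titles.

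A group-means model over all 21 arrays was fitted with limma 3.58.1 in R 4.3.3 (lmFit, contrasts.fit, eBayes), and p-values were Benjamini-Hochberg adjusted over all genes, with a threshold of 0.05. On simulated data with 200 of 5449 genes changed, the ISP1 comparison recovered 92% of changes of 0.5 and 99% of changes of 1 (log2), with 3.54% false calls. With ISP1 in YPD 61.1% of genes passed, a far larger share than was changed in that run. Recovery and false calls on the arrays themselves were not tested. Array number limits the precision. Arrays of the same number deviated together (correlations of 0.53, 0.23 and 0.383), each above the 0.1 set as the rule for pairing. Of the 6 pairs of unlike number, control 3 with ISP1 2 reached 0.235, as high as same-number pair 2, and the others -0.493 to -0.014. The labels name no pairing, so whether the numbers pair the samples is not settled. The calls given are from the fit without pairs. The fit with the number as a block is an alternative. Others are median centring, quantile normalization, other probe set and dim-gene rules, the compared arrays alone, and leaving out each array. Genes named are the largest changes of the comparison, those of each list, all members of the sphingolipid, TORC2, RTA1-like and phosphate lists, regulators, and the largest differences of effect. A few genes named as examples, and which regulators to print, were picked after their values were seen. Members and lists were chosen with earlier results of these data known. No sequence or coordinate is given, because no genome was used here.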

Additional observations from a re-analysis of the deposited data

Results flagged for a closer look

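The effect of ISP1 differed between settings for many genes, and the test of that difference is what singles out the results here. The YPD arrays enter each difference, so its direction is partly fixed for genes that moved far in YPD. Under heat the ISP1 effect was higher than without heat in 1188 genes and lower in 1043. The genes with the largest higher values, as the effect under heat minus the effect without heat (log2), were MMP1 (1.85), SFG1 (1.81), SPS100 (1.80), PHO5 (1.73), MHT1 (1.69), PHO11 (1.65), LRP1 (1.61) and DHR2 (1.57). LRP1, a cofactor of the nuclear exosome, fell in YPD (-1.04 ± 0.10) and rose under heat (0.57 ± 0.10), so that its directions were opposite. The largest lower values were in ARG3 (-3.35), RTC2 (-3.33), GPH1 (-3.07), CTT1 (-3.04), EGO4 (-3.02), TMA10 (-3.02), RTC3 (-3.0) and SOL4 (-2.79).

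Under myristate in SC the effect was higher than in YPD in 1407 genes and lower in 1094. The largest higher values, as the effect under myristate minus the effect in YPD (log2), were in PHO5 (3.04), PHO11 (2.98), SPL2 (2.79), PHM6 (2.60), PHO3 (2.29), DHR2 (1.79), SFG1 (1.73) and CHA1 (1.71). CHA1, catabolic serine and threonine deaminase, fell in YPD (-1.39 ± 0.08) and under heat (-1.07 ± 0.08). The largest lower values were in RTC2 (-3.37), ARG3 (-3.29), SNO1 (-3.23), ADH5 (-3.21), TMT1 (-3.16), CTT1 (-3.09), TMA10 (-3.04) and BDH2 (-3.0).

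Outside the gene table, probe sets with no gene name were tested too, with p-values adjusted over those above background alone. Of 395 such probe sets, 88 were higher and 45 lower with ISP1 in YPD. Over all genes 27.9% were higher and 33.2% lower. At least 2-fold changes were seen in 22 that rose, a share near the 5.56% of all genes, and in 1 that fell, against 2.77%. The largest rise was 2.81 and the largest fall -1.07 (log2).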

How the results depend on the processing

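The counts of genes higher and lower in the ISP1 comparison and in the other 3 comparisons kept to within 1.5 times under every alternative run except the 2-fold minimum, which left 303 of 1522 genes higher and 151 of 1809 lower. Leaving out 1 array at a time gave 1408 to 1468 genes higher and 1638 to 1730 lower with ISP1 in YPD. The same gave 1007 to 1235 higher and 938 to 1081 lower for the difference of effect under heat, 1899 to 1969 and 1881 to 1954 for ISP1 against heat, and 1193 to 1465 and 1007 to 1106 for the difference of effect under myristate. With the replicate number as a block, 1554 genes were higher and 1854 lower in YPD. The block gave 1266 and 1092 for the difference under heat, 2049 and 2026 against heat, and 1452 and 1123 under myristate, and among the named genes it changed only the calls of TSC3 and MSN2. The block in a fit of the 6 compared arrays, chosen after seeing the data, gained 12 calls among the named genes and lost 4. The gains included LAC1 (adjusted p = 0.0212), GDE1 (0.016), SIP18 (0.0219) and SPS100 (0.00288). The losses were LCB5 (0.0652), RTS1 (0.0514), TPD3 (0.0565) and LEM3 (0.0542). Without replicate 1 of both groups, an alternative chosen after seeing the data, 1382 genes were higher and 1621 lower. Of 450 genes tracked, 370 were called, 34 lost the call in at least 1 of 15 settings, 19 gained one and none reversed. Of 84 list counts 22 moved by over 1.5 times in some setting, most of them counts of few genes. RMA quantile normalization sets every array to 1 distribution, so a shift common to all genes could not be seen. Genes near background, such as PHO92, have little range to fall.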

Other observations

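Some further gene groups are not described above. The counts stand against 27.9% of all genes higher and 33.2% lower. Glucose and fermentation genes were mixed, with 14 of 41 higher and 8 lower: hexokinase HXK1 rose (2.16 ± 0.15), as did EMI2 (1.84 ± 0.07) and HXT7 (1.48 ± 0.11), whose probe set can also take up its near-identical copy HXT6. Of 21 aldehyde, butanediol and pentose phosphate genes 15 rose and 3 fell (median 0.67), with BDH1 (1.34 ± 0.07) and ALD3 (1.58 ± 0.14) higher and RKI1, ribose-phosphate isomerase, lower (-1.15 ± 0.12). Of 18 glycerol and osmotic response genes 7 rose and 4 fell. Among the 12 glycerol genes 6 rose, such as GCY1 (2.36 ± 0.09) and the mitochondrial dehydrogenase GUT2 (1.49 ± 0.09), and 1 fell. Among the 6 Hog1 pathway genes 1 rose and 3 fell, including the osmosensor SHO1 (-0.67 ± 0.07) and the kinase HOG1 (-0.36 ± 0.05). Iron genes fell in 10 of 27 cases, a share near that of all genes, and rose in 2, with the high-affinity permease FTR1 (-1.09 ± 0.10) and the low-affinity transporter FET4 (-0.88 ± 0.09) lower. Of 25 nucleotide synthesis genes 14 fell, including the CTP synthase URA7 (-1.21 ± 0.12), and 8 rose.

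Genes at least 2-fold higher lay beside another such gene on the chromosome in 59 of 303 cases (19.5%), against 10.8% of all genes with such a neighbour, and genes at least 2-fold lower in 22 of 151 cases (14.6%), against 5.47%. No standard name was given for 37 of the 303 and 9 of the 151.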
